A study of Homo sapiens with 24 samples.

Results

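The transcripts counted under a control siRNA in the prostate cancer line PC3 were set against those counted under a control siRNA in the colorectal cancer line HCT116. Its libraries were taken by their labels. They are 6 of the 24 libraries of the series, 3 labelled PC3 siCTRL and 3 labelled HCT116 siCTRL, read for all 189 endogenous genes of an nCounter cell cycle panel. The nCounter assay hybridises barcoded probes to RNA and counts them one by one without amplification. PC3 cells had been transfected with 100 nM control siRNA and HCT116 cells with 50 nM, both with Lipofectamine RNAiMAX, and total RNA was isolated with TRIZOL. The other 18 libraries come from the same lines under siRNAs against CARLo transcripts (siCARLo-1 v2&4 in PC3, and siCARLo-7 v2, siCARLo-5, siCARLo-4, siCARLo-3 and siCARLo-1 v3 in HCT116), and they serve here only to show how far a level moves within a line.

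Passage through the cell cycle is driven by cyclin-dependent kinases (CDKs), which are switched on by cyclins and held back by CDK inhibitors. D cyclins with CDK4 and CDK6, then cyclin E with CDK2, phosphorylate RB1 and its relatives, which frees E2F factors to transcribe genes of DNA replication. DNA damage halts the cycle, in large part through the CDK inhibitor p21 (CDKN1A). PC3 was derived from a bone metastasis of prostate cancer and grows without androgen, and HCT116 was derived from a colorectal carcinoma. Both were made from tumours of 1 patient each, so every difference given here is between 2 established lines and not between prostate and colon.

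Endogenous counts summed to 216562 to 236508 per library in PC3 and to 89835 to 130777 in HCT116. Background, the mean plus 2 SD of the 8 negative control probes, was 10.8 to 15.7 counts in PC3 and 8.94 to 11.3 counts in HCT116, and 178 to 184 genes per PC3 library lay above it, against 168 to 172 per HCT116 library. The spiked positive controls themselves differed a little between the lines, from -0.37 to 0.09 on the log2 scale after the scaling used for the genes, and differences of that size are no larger than those of spikes that no cell makes. In the series-wide table, positive control sums fall into sets, with PC3 siCTRL at 16033 and HCT116 siCTRL at 8964 to 8967, so that cell line, siRNA concentration and set cannot be told apart in the direct comparison. HCT116 siCARLo-5 and siCARLo-7 v2 have sums of 16033 to 16034, the set of PC3 siCTRL, and values against those 6 libraries are given below as same-set values, which use the same 3 PC3 libraries and bring in an siRNA treatment on the HCT116 side. HCT116 libraries 1 and 2 differed by little more than sampling noise (chi-square per degree of freedom 1.19, p = 0.047, against 2.41 to 3.27 for the other pairs of replicates). They were kept as separate libraries, and the counts of calls with both as 1 library are in the closing section. The labels do not say that replicates are separate cultures, so the p-values measure a spread between libraries that may be technical.

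Of the 189 genes, 178 were above background in at least 3 of the 6 libraries and were tested. The 138 genes called at an adjusted p under 0.05 were 77.5% of those tested, 73 higher in PC3 (41%) and 65 lower (36.5%). The 2 groups of libraries did not overlap for 139 genes (78.1%). The median log2 fold change of PC3 over HCT116 was 0.03 with quartiles at -0.43 and 0.54, and the median size was 0.45, so most calls were of modest differences between tight replicates (coefficient of variation 4.38% from the common dispersion). By fitted values, a difference of at least 2-fold was called for 35 genes (19.7%), 26 higher (14.6%) and 9 lower (5.06%). Since each library was scaled to the bulk of the panel, fold changes are relative to that bulk. Scaling by the positive controls moved the median to 0.13, scaling by 6 reference genes to -0.12, and the series-wide table, which keeps the unequal sets, to 0.86.

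**Figure D1:**
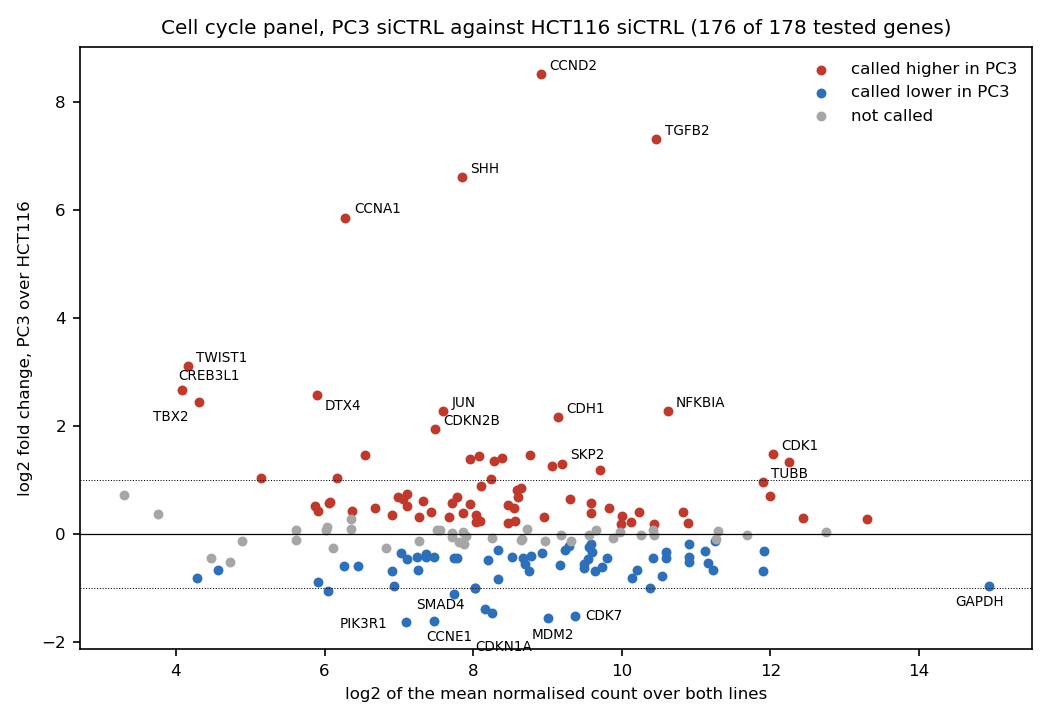
Log2 fold change of PC3 siCTRL over HCT116 siCTRL for 176 of the 178 tested genes against the log2 of the mean normalised count over both lines, with dotted lines at a 2-fold difference. Genes called higher in PC3 are red and those called lower are blue, and the fitted values of CCND2, SHH, CCNA1, TWIST1, CREB3L1 and TBX2 stand on HCT116 readings at background.

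In all, 8 genes were above background in all 3 PC3 libraries and in none of the 3 HCT116 libraries, and 0 genes showed the reverse. Background was applied to counts before scaling, and endogenous counts summed to 216562 to 236508 in PC3 but 89835 to 130777 in HCT116. A gene at the same scaled level could therefore pass in PC3 alone, so the split is not by itself a difference between the lines. The normalised counts of POLR1A, among the 8, overlapped between the lines. Of the 8, 6 were called, namely CCND2, SHH, CCNA1, TWIST1, CREB3L1 and TBX2, while POLR1A (log2 fold change 0.37) and UBE2M (0.72) were not. For the 6, a fold change against background is only a lower bound, and bounds are given in place of fitted values. The 6 passed the background filter only through PC3, so their direction follows from the filter and their adjusted p-values are descriptive. TGFB2 and DTX4, each above background in 1 of 3 HCT116 libraries, also needed the PC3 libraries to pass, and their adjusted p-values are descriptive too. The 6 are also among the 26 genes at least 2-fold higher, a count by fitted values, and in the list counts below. The bounds of TWIST1 (1.99-fold) and CREB3L1 (1.84-fold) are under 2-fold.

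Different promoters stand among the genes read at background in HCT116, shown here because cytosines before guanine, written CG in capitals, are the bases that DNA methylation can mark. Each sequence runs 5′ to 3′ over the 250 bases before and 50 bases from the RefSeq start of the gene in build GRCh38.p14.
SHH promoter, chr7:155812414-155812713, minus strand: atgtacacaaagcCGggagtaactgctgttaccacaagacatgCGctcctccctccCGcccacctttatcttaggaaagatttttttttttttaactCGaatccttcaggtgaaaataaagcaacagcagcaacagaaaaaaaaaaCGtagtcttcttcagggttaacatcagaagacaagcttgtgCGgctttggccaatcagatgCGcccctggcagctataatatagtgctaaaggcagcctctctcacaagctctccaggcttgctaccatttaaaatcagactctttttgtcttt
CCNA1 promoter, chr13:36431705-36432004, plus strand: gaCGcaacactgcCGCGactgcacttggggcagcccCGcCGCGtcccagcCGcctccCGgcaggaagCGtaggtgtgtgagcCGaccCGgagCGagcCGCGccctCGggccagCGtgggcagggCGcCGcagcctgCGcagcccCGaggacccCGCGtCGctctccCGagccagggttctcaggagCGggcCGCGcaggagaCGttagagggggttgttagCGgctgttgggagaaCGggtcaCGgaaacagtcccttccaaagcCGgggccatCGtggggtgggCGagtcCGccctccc
The SHH window held 7 CG and the CCNA1 window 35. They are the lowest and the highest of the 3 with an entry among the 6 called genes at background in HCT116 (median 9). Of all 35116 promoters in the RefSeq table, 63.2% held at least as many CG as SHH and 14.1% at least as many as CCNA1. The median was 23.5 CG among the genes called at least 2-fold higher (20 of 26 with a promoter in the table), 28.5 among those at least 2-fold lower (8 of 9), and 28.0 among all endogenous genes (158 of 189), against 14 over the whole table. Methylation was not measured here.

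Of a list of genes known to be induced by DNA damage, 5 were on the panel and tested, and 3 were lower in PC3, 1 higher and 1 not called (median -0.17, against 0.03 over all genes). Shares over all genes tested were 36.5% lower and 41% higher. MDM2, a ubiquitin ligase gene, gave 274, 252 and 262 normalised counts in PC3 and 748, 781 and 779 in HCT116. All PC3 libraries lay below all HCT116 libraries (log2 fold change -1.55 ± 0.08, the value after ± being the SE here and below, 2.93-fold lower, adjusted p = 5e-35). CDKN1A gave 150, 169 and 166 normalised counts in PC3 and 420, 442 and 481 in HCT116, again without overlap (-1.46 ± 0.09, 2.75-fold lower, adjusted p = 4.3e-28). The other genes of the list differed little. SFN, which encodes 14-3-3 sigma, was 1.13-fold lower (-0.17 ± 0.07, adjusted p = 0.02), and GADD45A, a damage-induced growth arrest gene, 1.14-fold higher (0.19 ± 0.06, adjusted p = 0.0066). Both calls were lost with positive control scaling, and leaving out 1 library ended that of SFN (without PC3 library 1, -0.16, adjusted p = 0.074) and that of GADD45A (without PC3 library 2, 0.15, adjusted p = 0.066). GADD45A was also not called with reference gene scaling. CCNG2, which encodes the atypical cyclin G2, was not called (0.08).

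Against the same-set libraries, averaged over both groups, MDM2 stood at -1.55, while the values of other genes of the list moved. CDKN1A stood at -2.49 against HCT116 siCARLo-5 and siCARLo-7 v2, and SFN at -1.75. Within each line CDKN1A ranged widely. With all 8 groups scaled together, it averaged 700 ± 56.6 scaled counts (SD, n = 3 libraries) in PC3 siCARLo-1 v2&4 and 122 ± 7.90 in PC3 siCTRL, and among the HCT116 groups between 1928 ± 53.5 in siCARLo-3 and 340 ± 20.9 in siCTRL. PC3 siCTRL was thus below every HCT116 library, while PC3 siCARLo-1 v2&4 lay within the HCT116 range. For MDM2 the PC3 group means were 323 ± 21.1 in siCARLo-1 v2&4 and 198 ± 9.57 in siCTRL, both under the lowest HCT116 mean of 412 ± 22.7 in siCARLo-5. HCT116 siCARLo-7 v2 averaged 844 ± 56.7 and HCT116 siCTRL 584 ± 9.75, so the same-set value of MDM2 averages groups on either side of siCTRL. SFN averaged 1288 ± 116 in HCT116 siCARLo-5, 2728 ± 120 in siCARLo-7 v2 and 618 ± 31.8 in siCTRL.

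**Figure D2:**
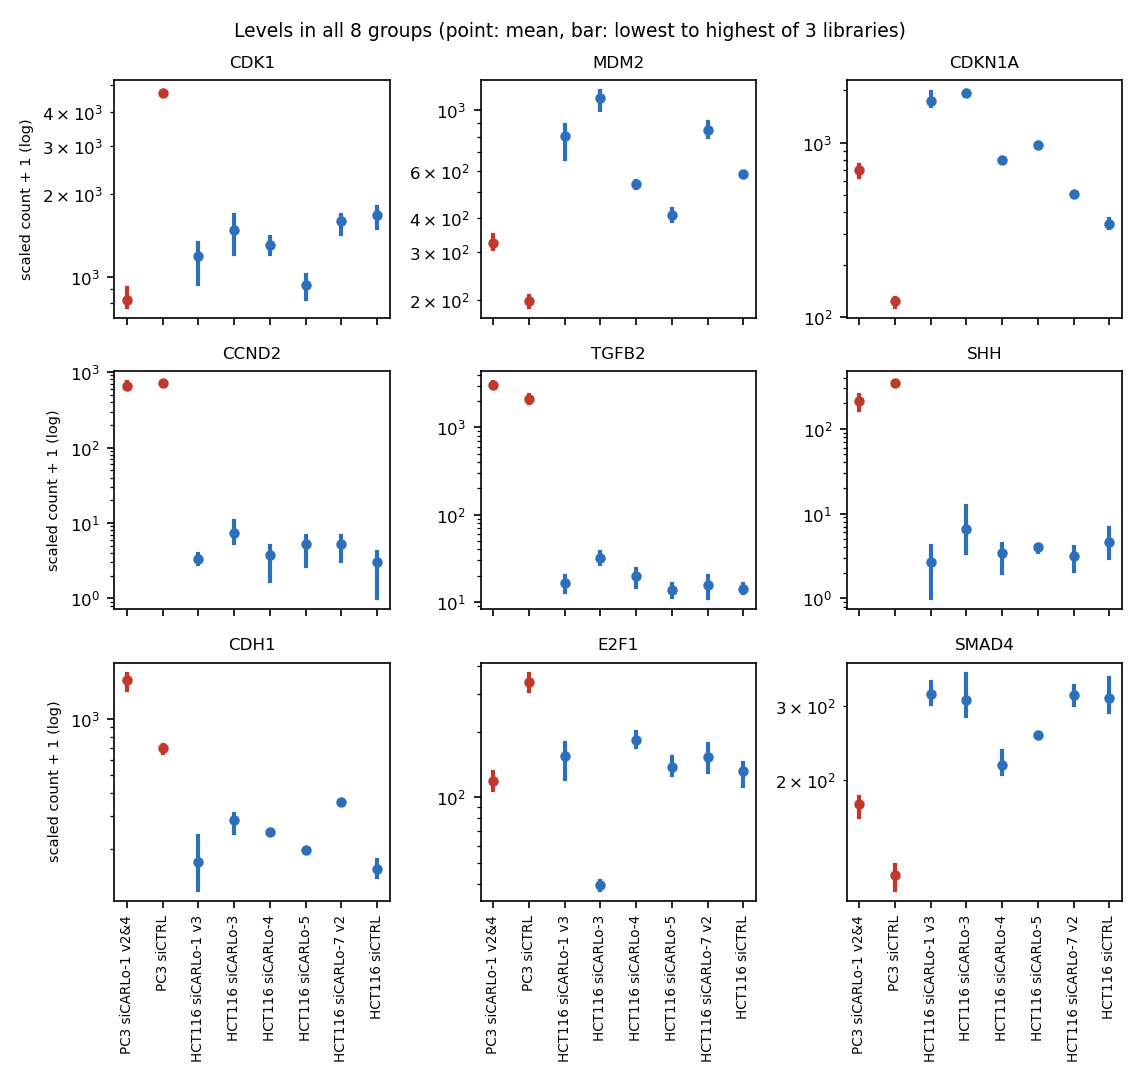
Scaled counts plus 1 on a log axis of 9 genes in all 8 groups, PC3 groups in red and HCT116 groups in blue, with points at group means and bars from the lowest to the highest of 3 libraries; PC3 siCARLo-1 v2&4 was deposited as values scaled by the authors. CCND2, TGFB2 and SHH are low in all 6 HCT116 groups, and E2F1 of PC3 siCARLo-1 v2&4 lies within the HCT116 range.

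All 6 tested CDK inhibitor genes were called, against 77.5% of all genes tested. The 3 INK4 genes, whose products bind CDK4 and CDK6, were higher in PC3 and the 3 CIP/KIP genes, whose products bind cyclin-CDK pairs, were lower. CDKN2B, which encodes p15, gave 315, 243 and 299 normalised counts in PC3 and 70.0, 86.0 and 61.5 in HCT116 (log2 fold change 1.95 ± 0.13, 3.86-fold higher, adjusted p = 6.8e-27). CDKN2A, which encodes p16 and p14ARF, gave 94.8, 96.5 and 96.8 normalised counts in PC3 and 52.2, 33.6 and 57.7 in HCT116 (1.04 ± 0.17, 2.05-fold higher, adjusted p = 6.4e-08). Probe sequences were not available, so whether the CDKN2A count follows the p16 or the p14ARF transcript is not known. CDKN2D, which encodes p19, was 1.58-fold higher (0.66 ± 0.13, adjusted p = 1.8e-06). On the CIP/KIP side, CDKN1A is given above, CDKN1B, which encodes p27, was 1.5-fold lower (-0.59 ± 0.15, adjusted p = 2.5e-04), and CDKN1C, which encodes p57, stood at -0.35 with overlapping libraries. The CDKN1C call was lost without HCT116 library 2 or 3, with positive control scaling, with limma, with DESeq2 and against the same-set libraries. With the same-set libraries 3 INK4 genes were again higher, but only 1 of the 3 CIP/KIP genes was lower, and CDKN1B was at -0.27 (adjusted p = 0.092). CDKN2C lay at background in both lines and was not tested.

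The D cyclin genes did not differ in 1 direction, with 2 higher in PC3 and 1 lower. Shares over all genes tested were 41% higher and 36.5% lower. Of the higher genes CCND2 passed the background filter only through PC3. CCND2, which encodes cyclin D2, gave 975, 979 and 923 normalised counts in PC3 and 4.12, 0 and 3.85 in HCT116, at background in all 3 HCT116 libraries, and was at least 60.5-fold higher in PC3 (adjusted p = 1.2e-64). It averaged 655 ± 64.0 scaled counts in PC3 siCARLo-1 v2&4 and 723 ± 13.3 in PC3 siCTRL, and no HCT116 group mean exceeded 6.28 ± 3.01. CCND3, which encodes cyclin D3, gave 157, 139 and 116 normalised counts in PC3 and 41.2, 53.8 and 55.8 in HCT116 (1.46 ± 0.16, 2.75-fold higher, adjusted p = 2.6e-14). CCND1, which encodes cyclin D1, gave 1340, 1382 and 1395 normalised counts in PC3 and 1652, 1745 and 1779 in HCT116 (-0.33 ± 0.06, 1.26-fold lower, adjusted p = 2.3e-07), a call lost with positive control scaling. Against the same-set libraries CCND1 was at -1.22 and CCND3 at 0.69. Their partner kinases CDK4 (0.04 ± 0.07, adjusted p = 0.62) and CDK6 (-0.12 ± 0.12, adjusted p = 0.34) were not called. The 95% intervals of those log2 fold changes ran from -0.10 to 0.18 for CDK4 and from -0.35 to 0.11 for CDK6, but against the same-set libraries CDK4 was at -0.31 and CDK6 at 0.68, both called. CDK4 was also called without HCT116 library 3 (0.17, adjusted p = 0.0086), and CDK6 with reference gene scaling (-0.27, adjusted p = 0.029).

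Of the pocket proteins, which bind E2F factors, RBL1 (p107) alone passed the test. RBL1 gave 468, 487 and 506 normalised counts in PC3 and 198, 177 and 173 in HCT116 (1.41 ± 0.09, 2.65-fold higher, adjusted p = 1.6e-26), or 2.12 against the same-set libraries. RB1 itself gave 387, 410 and 377 normalised counts in PC3 and 422, 394 and 437 in HCT116, with overlapping libraries (-0.09 ± 0.08, adjusted p = 0.33, 95% interval -0.25 to 0.08), though it was called lower with reference gene scaling (-0.24, adjusted p = 0.014). RBL2 (p130) was at 0.03.

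The 8 E2F and DP genes tested split into 2 higher, 2 lower and 4 not called (median -0.06). Among all genes tested 41% were higher and 36.5% lower. E2F1, an activator of replication genes, gave 411, 448 and 482 normalised counts in PC3 and 181, 190 and 148 in HCT116 (1.35 ± 0.10, 2.55-fold higher, adjusted p = 3.1e-24). E2F5, which works with p130 as a repressor, gave 594, 669 and 648 normalised counts in PC3 and 220, 227 and 252 in HCT116 (1.46 ± 0.09, 2.75-fold higher, adjusted p = 1.5e-29). The repressor E2F4 (-0.67 ± 0.08, 1.59-fold lower) and the E2F partner TFDP2 (-1.10 ± 0.10, 2.14-fold lower) were lower in PC3. E2F2, E2F3, E2F6 and TFDP1 lay between -0.17 and 0.08 and were not called, and 5 genes of the list were lower against the same-set libraries.

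Promoters with E2F elements were looked up because both an E2F gene and genes of replication differed between the lines. The elements searched on both strands were TTTCGCGC, TTTGGCGC, TTTCCCGC and TTTGCCGC, whose matches can overlap, and a match describes the sequence without showing a site. The windows of E2F1, higher in PC3, and MCM6, lower in PC3, are printed with matches in capitals.
E2F1 promoter, chr20:33686336-33686635, minus strand: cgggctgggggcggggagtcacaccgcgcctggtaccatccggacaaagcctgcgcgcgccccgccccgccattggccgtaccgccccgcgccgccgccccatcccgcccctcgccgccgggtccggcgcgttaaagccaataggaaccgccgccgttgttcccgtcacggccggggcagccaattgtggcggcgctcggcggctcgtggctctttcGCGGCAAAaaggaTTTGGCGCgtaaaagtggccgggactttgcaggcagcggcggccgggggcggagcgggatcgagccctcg
MCM6 promoter, chr2:135876394-135876693, minus strand: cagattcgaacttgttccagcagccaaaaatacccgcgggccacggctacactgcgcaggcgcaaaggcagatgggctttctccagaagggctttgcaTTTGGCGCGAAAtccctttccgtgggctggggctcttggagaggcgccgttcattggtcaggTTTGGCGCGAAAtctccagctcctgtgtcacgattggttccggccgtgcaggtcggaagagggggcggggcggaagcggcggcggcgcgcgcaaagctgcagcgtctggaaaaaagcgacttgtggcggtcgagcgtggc
The E2F1 window held 2 matches, and the MCM6 window 4 in overlapping pairs that read TTTGGCGCGAAA. An element was present in 3.31% of all promoters in the table and in 24 of the 152 tested genes with an entry (15.8%). Of those 24 genes 10 were higher in PC3, 9 lower and 5 not called, with a median of -0.06, against -0.0037 over the 152. The higher ones were CDK1, YWHAB, RBL1, CDC25A, E2F1, POLA2, ATF6B, PCNA, POLE2 and MCM3, and the lower ones CDC6, MCM7, CDC23, POLE, ORC3, CDC16, MCM6, GAPDH and MDM2. Genes whose promoter holds an element thus lay on both sides in these libraries, as the tested genes at large did.

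At the entry into S phase the 2 cyclin E genes went opposite ways. CCNE1 gave 93.2, 90.8 and 80.9 normalised counts in PC3 and 260, 269 and 275 in HCT116 (-1.60 ± 0.11, 3.02-fold lower, adjusted p = 6.1e-25). CCNE2 gave 287, 317 and 285 normalised counts in PC3 and 221, 191 and 192 in HCT116 (0.55 ± 0.10, 1.47-fold higher, adjusted p = 3.6e-07). CDC25A, the phosphatase that activates CDK2, gave 356, 370 and 355 normalised counts in PC3 and 137, 148 and 121 in HCT116 (1.4 ± 0.10, 2.63-fold higher, adjusted p = 1.3e-23). CDK2 was not called (-0.06). SKP2, the receptor with which the SCF ubiquitin ligase recognises p27, gave 815, 834 and 844 normalised counts in PC3 and 313, 344 and 352 in HCT116 (1.31 ± 0.08, 2.48-fold higher, adjusted p = 2.6e-29), or 1.91 against the same-set libraries. FBXW7, the SCF receptor for cyclin E, was 1.61-fold lower (-0.68 ± 0.13, adjusted p = 2.1e-06). Of the 6 SCF genes tested 4 were higher in PC3, 1 lower and 1 not called, where 41% of all genes tested were higher and 36.5% lower. The count of higher genes fell to 2 with either control-based scaling, and against the same-set libraries 3 were higher and 3 lower. The call of CDC34, which encodes the SCF's conjugating enzyme (0.24 ± 0.10), was lost without PC3 library 2 or 3 or without HCT116 library 1 or 2 (0.12 to 0.23).

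The CDK-activating kinase is a complex of CDK7, cyclin H (CCNH) and MNAT1, and its 3 genes did not differ in 1 direction. CDK7 gave 351, 360 and 321 normalised counts in PC3 and 989, 1016 and 927 in HCT116 (-1.51 ± 0.07, 2.85-fold lower, adjusted p = 7.1e-36). MNAT1 gave 1174, 1161 and 1153 normalised counts in PC3 and 522, 558 and 423 in HCT116 (1.20 ± 0.07, 2.30-fold higher, adjusted p = 2.2e-29), and CCNH was 1.5-fold higher (0.59 ± 0.07, adjusted p = 1.3e-12). Those directions held under both control-based scalings and against the same-set libraries, where CDK7 was at -1.30, MNAT1 at 1.39 and CCNH at 1.53.

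Mitotic cyclins and CDK1 regulators gave 4 genes higher in PC3, 5 lower and 2 not called of 11 (median -0.09). Shares over all genes tested were 41% higher and 36.5% lower, and CCNA1, among the 4, passed the background filter only through PC3. CDK1, the kinase that drives mitosis, gave 6358, 6189 and 6061 normalised counts in PC3 and 2249, 2369 and 2002 in HCT116 (1.49 ± 0.05, 2.80-fold higher, adjusted p = 1.4e-48). CCNA1, the cyclin A gene otherwise active in the male germline, gave 168, 133 and 158 normalised counts in PC3 and 1.37, 5.38 and 0 in HCT116 and was at least 9.66-fold higher (adjusted p = 6.3e-34). The commoner cyclin A2 gene CCNA2 (-0.43), CCNB2 (-0.33), PLK1 (-0.45), CDC14B (-0.43) and the phosphatase gene CDC25B (-0.55 ± 0.08, 1.46-fold lower) were called lower, while CCNB1 (-0.09) and CDC25C (0.29) were not called. CDC14A, a mitotic exit phosphatase gene, was 1.4-fold higher (0.49 ± 0.14). With positive control scaling the list had 5 higher and 3 lower.

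CDK1 also differed between the PC3 groups, where siRNA and set cannot be told apart. It averaged 823 ± 74.4 scaled counts in PC3 siCARLo-1 v2&4 and 4678 ± 89.9 in PC3 siCTRL, and its HCT116 group means ran from 931 ± 92.9 in siCARLo-5 to 1674 ± 147 in siCTRL. SKP2 averaged 189 ± 12.4 scaled counts in PC3 siCARLo-1 v2&4 and 627 ± 18.2 in PC3 siCTRL, and E2F1 averaged 118 ± 11.4 in PC3 siCARLo-1 v2&4 and 337 ± 30.9 in PC3 siCTRL.

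Of 7 spindle assembly checkpoint genes tested, 4 were called lower in PC3, 0 higher and 3 not called (median -0.29). Over all genes tested 36.5% were called lower and 41% higher. The checkpoint list had 3 lower after positive control scaling, 5 lower after reference gene scaling, and 2 higher and 4 lower against the same-set libraries. CDC20, the APC/C activator that the checkpoint restrains, gave 767, 830 and 851 normalised counts in PC3 and 1296, 1378 and 1617 in HCT116 (-0.80 ± 0.07, 1.74-fold lower, adjusted p = 5.4e-21). BUB3 (-0.66 ± 0.05, 1.58-fold lower) and MAD2L1 (-0.66 ± 0.07, 1.59-fold lower) followed, and BUB1 was 1.22-fold lower (-0.29 ± 0.07). Against the same-set libraries BUB1 turned to 0.23 and MAD2L1 stood at -0.08 (adjusted p = 0.32).

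The anaphase-promoting complex (APC/C) is the ubiquitin ligase that ends mitosis. Its 12 tested genes comprised 7 lower in PC3, 2 higher and 3 not called (median -0.40). Shares over all genes tested were 36.5% lower and 41% higher. There were 5 lower and 1 higher after positive control scaling, and 9 lower and 1 higher after reference gene scaling. Against the same-set libraries 8 were lower and 3 higher. CDC16 gave 549, 583 and 576 normalised counts in PC3 and 875, 878 and 869 in HCT116 (-0.62 ± 0.07, 1.54-fold lower, adjusted p = 1.3e-13). ANAPC4 was 1.51-fold lower (-0.59 ± 0.16), ANAPC1 stood at -0.58, and the small RING subunit gene ANAPC11 was 1.51-fold higher (0.59 ± 0.17). Of the chromatid cohesion genes, separase (ESPL1, 0.41 ± 0.11) and securin (PTTG1, 0.22 ± 0.06) were called higher and the cohesin subunit gene SMC1A (-0.43 ± 0.08) lower. The PTTG1 call was lost with reference gene scaling (0.065), and SMC1A was at 0.67 against the same-set libraries. PTTG1 and PTTG2 are nearly identical, and the PTTG1 probe may count both.

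The MCM2 to MCM7 helicase had 4 genes lower in PC3, 1 higher and 1 not called (median -0.24), or 2 lower after positive control scaling and 5 after reference gene scaling. Shares over all genes tested were 36.5% lower and 41% higher. MCM5 gave 188, 161 and 178 normalised counts in PC3 and 330, 387 and 319 in HCT116 (-0.98 ± 0.10, 1.98-fold lower, adjusted p = 1.2e-16). MCM6 gave 568, 617 and 657 normalised counts in PC3 and 975, 991 and 996 in HCT116 (-0.68 ± 0.07, 1.61-fold lower, adjusted p = 6.1e-16), MCM7 was 1.23-fold lower (-0.30 ± 0.05) and MCM3 1.31-fold higher (0.39 ± 0.07). Of 13 genes of origin recognition, firing and fork elongation 7 were higher, 5 lower and 1 not called (median 0.32), but the lower calls numbered 0 after positive control scaling and 1 against the same-set libraries, and reference gene scaling gave 5 higher and 6 lower. CDC7, the kinase that fires origins, gave 502, 529 and 522 normalised counts in PC3 and 298, 289 and 260 in HCT116 (0.87 ± 0.09, 1.82-fold higher, adjusted p = 2.1e-16), or 1.71 against the same-set libraries. CDC45, a part of the active helicase (0.70 ± 0.09, 1.62-fold higher), ORC6 (0.66 ± 0.08, 1.58-fold higher) and the sliding clamp gene PCNA (0.55 ± 0.09, 1.46-fold higher) were higher as well, PCNA being at 0.11 and not called against the same-set libraries. POLA2, a subunit of the polymerase that lays primers, and ARF1, a small GTPase of Golgi traffic, were 2.39-fold and 2.52-fold higher and are named because they complete the 26 genes, having been picked after their values were seen.

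Of 4 DNA damage kinase genes 3 were lower in PC3 (median -0.48), against 36.5% of all genes tested. PRKDC, which encodes the catalytic subunit of DNA-PK, gave 1038, 1102 and 1181 normalised counts in PC3 and 2028, 1835 and 1769 in HCT116 (-0.76 ± 0.06, 1.70-fold lower, adjusted p = 4.3e-22). The checkpoint kinase genes CHEK1 (-0.54 ± 0.08) and CHEK2 (-0.42 ± 0.11) were lower too and ATR was not called (-0.04). The CHEK2 call was lost with positive control scaling, which left 2 members lower. Against the same-set libraries 1 of the 4, CHEK2, was lower (-0.32) and 1 was higher, with PRKDC at -0.13 (adjusted p = 0.13) and CHEK1 at 0.13 (adjusted p = 0.14). MRE11A and RAD50, whose products sit in 1 break-sensing complex, went opposite ways. MRE11A gave 402, 375 and 427 normalised counts in PC3 and 183, 184 and 235 in HCT116 (1.02 ± 0.10, 2.03-fold higher, adjusted p = 2.6e-17), or 1.68 against the same-set libraries. RAD50 gave 75.2, 90.8 and 83.9 normalised counts in PC3 and 143, 179 and 163 in HCT116 (-0.95 ± 0.13, 1.93-fold lower, adjusted p = 1.5e-10). BRCA1 was not called (-0.04).

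**Figure D3:**
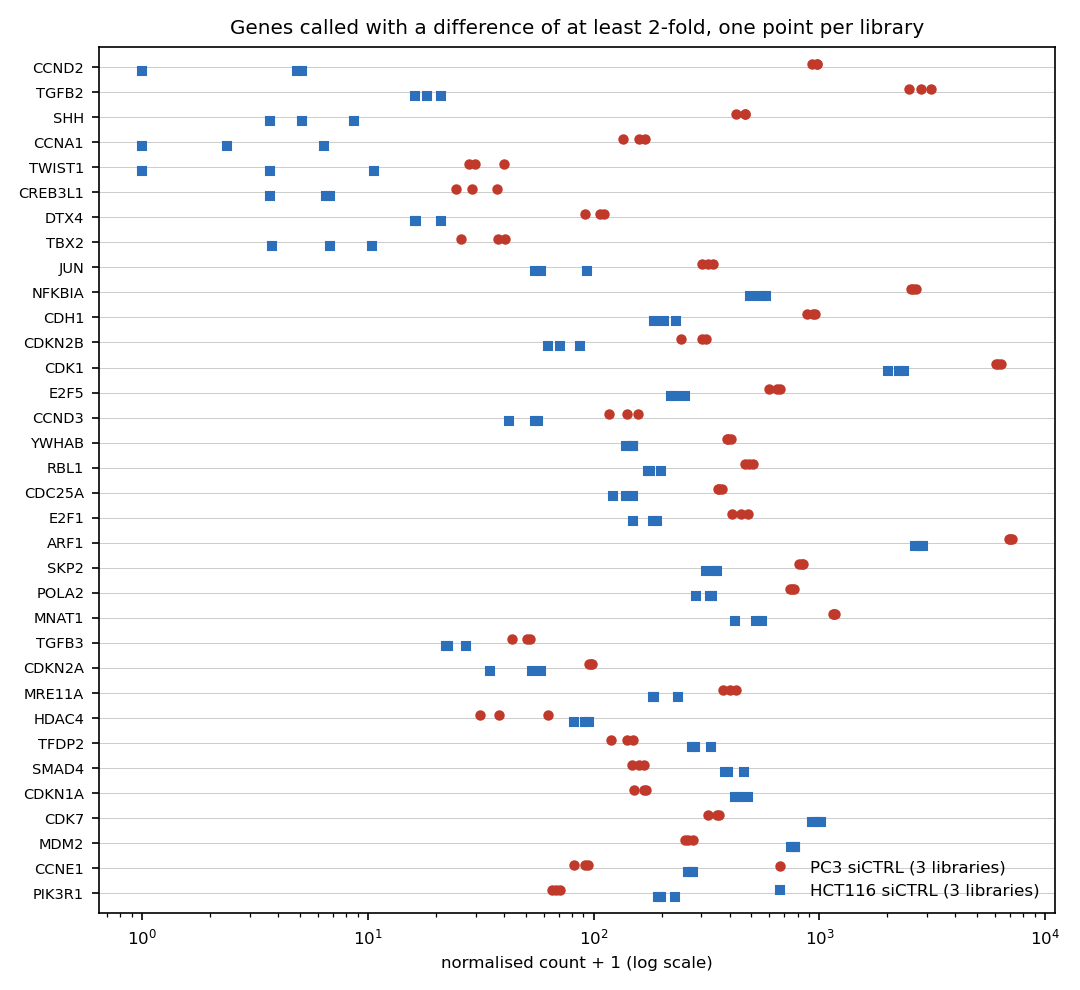
Normalised count plus 1, on a log axis, in each of the 3 PC3 siCTRL libraries (red circles) and 3 HCT116 siCTRL libraries (blue squares) for the 26 genes called at least 2-fold higher and 8 of the 9 called at least 2-fold lower in PC3. The lines do not overlap for any of the genes drawn, and CCND2, SHH, CCNA1, TWIST1, CREB3L1 and TBX2 lie at background in HCT116.

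All 6 tested genes of TGF-beta signalling were called, against 77.5% of all genes tested, with the 3 ligand genes and SMAD3 higher in PC3 and SMAD2 and SMAD4 lower. TGFB2, a TGF-beta ligand, gave 2831, 3106 and 2495 normalised counts in PC3 and 15.1, 20.2 and 17.3 in HCT116, above background in 1 of the 3 HCT116 libraries (7.31 ± 0.12, 159-fold higher, adjusted p = 3.2e-78). The HCT116 libraries alone would not have carried TGFB2 through the background filter, so its adjusted p-value is descriptive. Its fitted fold change rests on HCT116 readings near background. TGFB2 averaged 3057 ± 200 scaled counts in PC3 siCARLo-1 v2&4 and 2118 ± 200 in PC3 siCTRL, and at most 31.4 ± 5.18 in an HCT116 group. TGFB3 was 2.07-fold higher (1.05 ± 0.24, adjusted p = 4e-05) and TGFB1 stood at 0.62. SMAD4, the partner that all receptor-activated SMADs of the pathway need, gave 166, 146 and 157 normalised counts in PC3 and 394, 382 and 463 in HCT116 (-1.39 ± 0.09, 2.62-fold lower, adjusted p = 8.9e-26). SMAD2 gave 175, 177 and 174 normalised counts in PC3 and 378, 347 and 312 in HCT116 (-0.99 ± 0.09, 1.98-fold lower, adjusted p = 5.4e-17), whereas SMAD3 was higher (0.49). These counts, 4 higher and 2 lower, were the same after both control-based scalings and against the same-set libraries.

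The 5 genes of lineage and epithelial character were all higher in PC3 (median 2.57, or 2.17 with the 3 genes at background in HCT116 set to their bounds). Among all genes tested 41% were higher. SHH, TWIST1 and TBX2 passed the background filter only through PC3, so their direction follows from the filter and the count is a description. DTX4, above background in 1 of 3 HCT116 libraries, also needed its PC3 libraries to pass. SHH, the Sonic hedgehog ligand of gut and prostate development, gave 468, 469 and 426 normalised counts in PC3 and 4.12, 2.69 and 7.69 in HCT116 and was at least 28.6-fold higher (adjusted p = 3.9e-53). CDH1, which encodes the epithelial adhesion protein E-cadherin, gave 957, 880 and 931 normalised counts in PC3 and 184, 204 and 231 in HCT116 (2.17 ± 0.09, 4.51-fold higher, adjusted p = 2.1e-43), or 1.42 against the same-set libraries. DTX4, a regulator of Notch signalling, was 5.93-fold higher (2.57 ± 0.22) with 1 of 3 HCT116 libraries above background. TWIST1, a transcription factor of mesenchymal cells, gave 39.2, 27.0 and 28.7 normalised counts in PC3 and 0, 2.69 and 9.61 in HCT116, at least 1.99-fold higher (adjusted p = 5.5e-10), and the T-box factor gene TBX2 was at least 2.12-fold higher (adjusted p = 5.4e-09). CREB3L1, a membrane-bound transcription factor gene outside this list, was at least 1.84-fold higher (adjusted p = 5.8e-09).

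Of the marker genes listed to check the line labels, the panel holds only CDH1 and TWIST1. The epithelial marker CDH1 was above background in all 6 libraries and TWIST1 only in PC3, and neither marks colon or prostate, so the tissue named in the labels could not be checked. CDH1 averaged 1611 ± 169 scaled counts in PC3 siCARLo-1 v2&4, 696 ± 35.7 in PC3 siCTRL and at most 358 ± 10.3 in an HCT116 group.

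Of 5 genes of JUN and NF-kappaB signalling, which responds to stress and cytokines, 3 were higher in PC3 and 2 lower. Among all genes tested 41% were higher and 36.5% lower. NFKBIA, the inhibitor that NF-kappaB itself induces, gave 2668, 2549 and 2594 normalised counts in PC3 and 581, 493 and 542 in HCT116 (2.27 ± 0.06, 4.83-fold higher, adjusted p = 2.2e-56). JUN, a subunit of AP-1, gave 337, 319 and 299 normalised counts in PC3 and 57.7, 53.8 and 92.3 in HCT116 (2.28 ± 0.13, 4.85-fold higher, adjusted p = 1.2e-31), or 1.37 against the same-set libraries. The JUN kinase gene MAPK8 was 1.76-fold lower (-0.82 ± 0.09) and NFKB1 stood at -0.41. RELA was 1.44-fold higher (0.53 ± 0.12) but at -0.44 against the same-set libraries.

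Of 6 genes that write or erase histone acetylation 4 were lower in PC3, 1 higher and 1 not called (median -0.48), and the same 4-to-1 count held after positive control scaling. Shares over all genes tested were 36.5% lower and 41% higher. HDAC4 gave 61.9, 30.5 and 37.1 normalised counts in PC3 and 90.6, 80.7 and 94.2 in HCT116 (-1.04 ± 0.18, 2.05-fold lower, adjusted p = 2.1e-07). HDAC5, like HDAC4 a class IIa deacetylase gene, was 1.83-fold lower (-0.87 ± 0.18), HDAC2 1.45-fold lower (-0.54 ± 0.05) and HDAC1 1.35-fold lower (-0.43 ± 0.06), while the acetyltransferase gene EP300 was higher (0.37). Outside the list, the deacetylase genes HDAC3 (-0.43) and HDAC6 (-0.66) were called lower and HDAC8 (0.36) higher.

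Of the 14-3-3 genes, which encode phosphoserine-binding adaptors, YWHAB alone was higher. YWHAB gave 393, 387 and 405 normalised counts in PC3 and 148, 148 and 138 in HCT116 (1.44 ± 0.10, 2.71-fold higher, adjusted p = 2.8e-25), or 0.83 against the same-set libraries. The 4 members called lower of 7 tested included YWHAH (-0.44 ± 0.07, 1.35-fold lower) and YWHAE (-0.30 ± 0.05, 1.23-fold lower). Shares over all genes tested were 36.5% lower and 41% higher. After positive control scaling 1 member was lower, after reference gene scaling 5, and against the same-set libraries 6.

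Growth signalling genes gave 3 higher and 2 lower of 5, where 41% of all genes tested were higher and 36.5% lower. PIK3R1, the regulatory subunit of PI3 kinase, gave 64.2, 70.2 and 67.3 normalised counts in PC3 and 228, 192 and 198 in HCT116 (-1.62 ± 0.13, 3.07-fold lower, adjusted p = 4.2e-22). That difference did not carry over to the same-set libraries (-0.29, adjusted p = 0.081). PIK3R1 averaged 57.7 ± 6.37 scaled counts in HCT116 siCARLo-7 v2 and 156 ± 15.7 in HCT116 siCTRL. MYC, which lies in the chromosomal region of the CARLo transcripts, gave 1594, 1767 and 1560 normalised counts in PC3 and 2236, 2299 and 2071 in HCT116 (-0.43 ± 0.06, 1.34-fold lower, adjusted p = 5.1e-11). ABL1 was 1.49-fold higher (0.58 ± 0.10), at -0.08 and not called against the same-set libraries, and GSK3B 1.27-fold higher (0.34 ± 0.06). PIK3CA, the catalytic subunit of PI3 kinase, stood at 0.22 with overlapping libraries, a call lost without PC3 library 1 or HCT116 library 1 or 2, with either control-based scaling, with limma and with DESeq2. POLR1D, a subunit of RNA polymerases I and III, was 1.98-fold lower (-0.98 ± 0.06, adjusted p = 2.7e-29).

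Genes in common use as references were not level between the lines. GAPDH gave 22584, 20702 and 21013 normalised counts in PC3 and 40918, 43051 and 39956 in HCT116 (-0.95 ± 0.04, 1.93-fold lower, adjusted p = 3.3e-39). TUBB gave 5244, 5041 and 4901 normalised counts in PC3 and 2542, 2673 and 2510 in HCT116 (0.97 ± 0.05, 1.96-fold higher, adjusted p = 1.7e-34). GUSB (0.70 ± 0.13), HPRT1 (0.42) and PGK1 (0.29) were also higher and CLTC (-0.52 ± 0.05) lower. Against 77.5% of all genes tested, all 6 tested reference genes were thus called, 4 higher and 2 lower. The same numbers were called with positive control scaling and against the same-set libraries. Reference gene scaling is computed from these 6 genes and does not bear on their split.

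**Figure D4:**
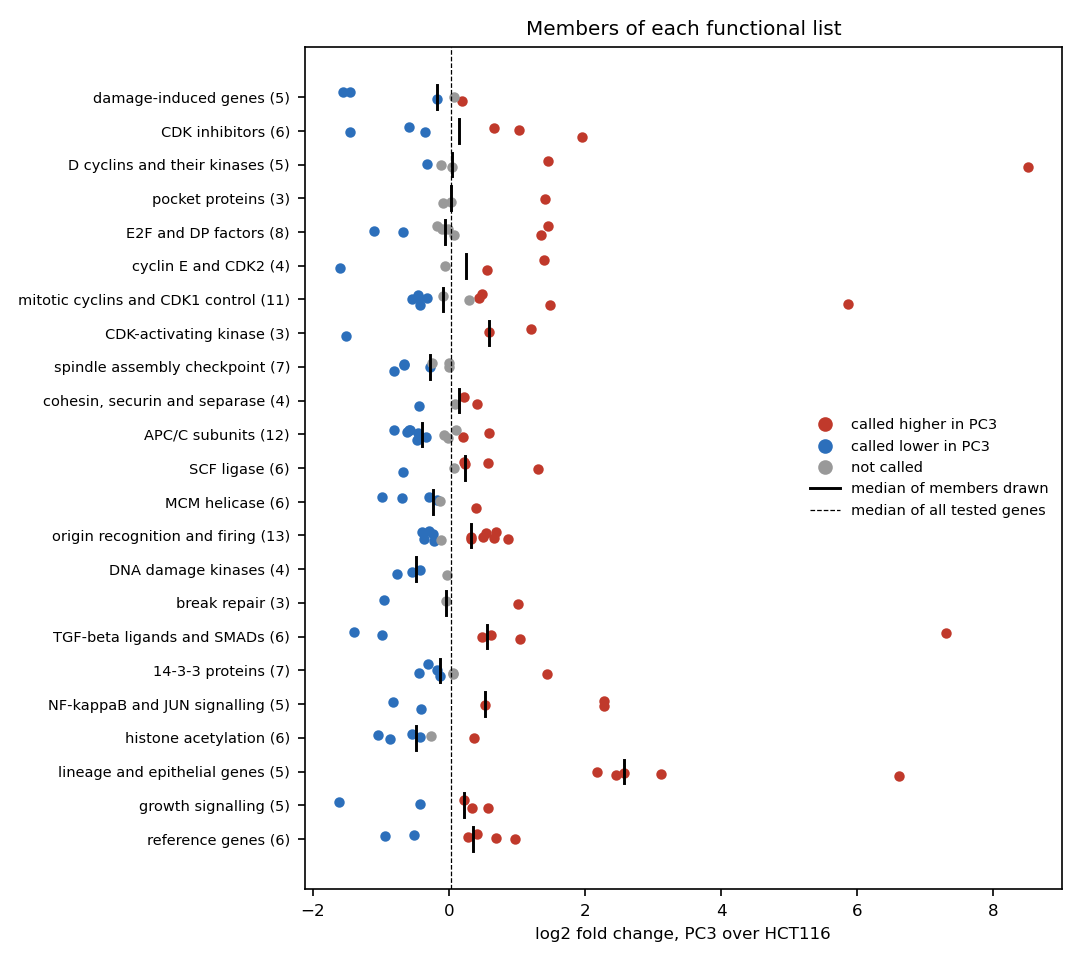
Log2 fold changes of PC3 siCTRL over HCT116 siCTRL for the members drawn of each functional list (number in brackets), with called genes in red (higher in PC3) or blue (lower), black bars at the medians of the members drawn and a dashed line at the median of all 178 tested genes, 0.03. Members of most lists lie on both sides of the dashed line. The 5 lineage and epithelial genes are all to its right, 3 of them with HCT116 readings at background and DTX4 above it in 1 of 3 HCT116 libraries. The 7 spindle assembly checkpoint genes and the 4 DNA damage kinase genes are all to its left. The lower counts of several lists shrink after positive control scaling and grow after reference gene scaling.

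The genes most alike in the lines were found as the tested genes whose 95% interval reached least far from 0. They were XPO1 (nuclear export, reach 0.106), CDC27 (APC/C, 0.134), TFDP1 (E2F partner, 0.139), BUB1B (spindle checkpoint kinase, 0.142), YWHAZ (14-3-3 zeta, 0.143) and MAD2L2 (checkpoint and translesion synthesis, 0.153). XPO1 gave 3186, 3430 and 3259 normalised counts in PC3 and 3461, 3372 and 3056 in HCT116. That likeness was to HCT116 siCTRL, for against the same-set libraries XPO1 was at 0.75, CDC27 at 0.74 and BUB1B at 0.82, and TFDP1 at -0.28, YWHAZ at -0.27 and MAD2L2 at -0.15, all 6 called. With reference gene scaling XPO1 (-0.15), CDC27 (-0.17), TFDP1 (-0.17) and YWHAZ (-0.099) were called lower.

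How far the 35 largest differences stood outside the range of each line was read from all libraries on a common scale. These genes were picked by a difference between the same PC3 siCTRL libraries and 3 of the 18 HCT116 libraries. Some separation thus followed from the choice, and the counts are a description. Of the 26 genes at least 2-fold higher, 25 had all 3 PC3 siCTRL libraries above all 18 HCT116 libraries, the exception being CCND3, and of the 9 lower genes 8 had them below all 18, the exception being PIK3R1. Over every called gene the numbers were 38 of 73 higher and 25 of 65 lower. When the 3 libraries of PC3 siCARLo-1 v2&4 were included, 19 of the 26 and 6 of the 9 still did not overlap, a count not made over all called genes. The genes that then overlapped were CDK1, CCND3, YWHAB, RBL1, E2F1, SKP2 and CDKN2A on the higher side and CDKN1A, CDK7 and PIK3R1 on the lower side.

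By chromosome, from RefSeq, all 5 tested genes on chromosome 14 were higher in PC3 (MNAT1, NEDD8, NFKBIA, POLE2 and TGFB3, median 1.05) and 6 of 8 on chromosome 20 (median 0.69, E2F1, RBL1, PCNA and YWHAB among them). On chromosome 2, 0 of 12 and on chromosome 4, 0 of 9 were called higher, with 7 and 6 lower (medians -0.19 and -0.43). Over all genes tested 41% were called higher and 36.5% lower, and these 4 were picked out of the chromosomes with at least 5 tested genes. These groupings were looked at after the values were known, and copy number was not measured here.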

How the data were processed

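Transcripts of 189 endogenous genes were counted on nCounter with 6 positive and 8 negative control probes. The group tables of both siCTRL groups, as deposited by the authors, hold raw counts, and 0 of their sample columns went unused. The table of PC3 siCARLo-1 v2&4 and the series-wide table, as deposited, hold a score, namely counts that the authors had scaled by the positive controls. Image processing, instrument runs and the siRNA sequences are not stated in the sources used here.

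Here, a gene was tested if its count exceeded background (mean plus 2 SD of the negative probes) in at least 3 of the 6 libraries. PC3 siCTRL was compared with HCT116 siCTRL by edgeR's quasi-likelihood F test (edgeR 4.0.16, R 4.3.3) with TMM scaling and Benjamini-Hochberg adjustment over the 178 genes tested, with calls at an adjusted p under 0.05. Each SE was derived from the F statistic. Where a line was at background in all 3 libraries, the bound sets the mean of the other line against background. Levels over all 24 libraries are counts or deposited scores scaled by TMM. Alternatives used limma 3.58.1 and DESeq2 1.42.0. Replicate numbers did not pair the samples (correlations of deviations -0.153, -0.209 and -0.234).

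Genes are named if they had the 12 highest or 12 lowest fold changes among called genes without overlap, if they were on a fixed list of 23, if they were the up to 4 called members of a functional list with the largest fold change, or if they were the 6 most alike. The comparison, the lists and this rule were chosen with earlier results of these data known. Of the probe accessions 178 matched the RefSeq gene table, 11 matched by symbol alone, and promoters are RefSeq sequence of build GRCh38.p14. Results of some genes named by this rule are not reported here.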

Additional observations from a re-analysis of the deposited data

How the results depend on the processing

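The 138 calls numbered 109 to 148 under the alternatives. Leaving out 1 library gave 132 to 139 calls, 69 to 73 higher in PC3 and 61 to 67 lower. With the replicate number as a block 137 genes were called, 73 higher and 64 lower, and with HCT116 libraries 1 and 2 as 1 library 131. DESeq2's Wald test called 127 genes, limma 134, a fit of all 21 libraries with raw counts 131 and the comparison with HCT116 siCARLo-5 and siCARLo-7 v2 145. Scaling by the positive controls left 109 calls, 68 higher (62.4%) and 41 lower, against 52.9% higher with TMM, and scaling by 6 reference genes gave 58 higher (41.4%) and 82 lower.

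The series-wide table gave 141 higher and 7 lower (95.3% higher), since its sets were scaled to unequal positive control sums. With it the log2 fold changes of these genes named by rule turned positive: SFN 0.66, CDKN1B 0.23, MYC 0.41, CCND1 0.51, E2F4 0.18, CDC25B 0.28, CDC20 0.033, MAD2L1 0.17, BUB3 0.18, BUB1 0.55, SMC1A 0.40, CDC16 0.22, ANAPC4 0.25, FBXW7 0.13, MCM6 0.15, MCM7 0.54, PRKDC 0.075, CHEK1 0.30, CHEK2 0.40, YWHAH 0.40, YWHAE 0.53, MAPK8 0.027, HDAC2 0.30, HDAC1 0.40 and CLTC 0.32. CCNA2, CCNB2, PLK1, CDC14B, NFKB1, CDC6, CDC23, POLE and ORC3 turned positive as well and were called higher. Against HCT116 siCARLo-5 and siCARLo-7 v2 the direction turned, with a call, for BUB1 (0.23), SMC1A (0.67), CDC34 (-0.48) and RELA (-0.44). The direction also turned for GADD45A (-0.059), CHEK1 (0.13) and ABL1 (-0.082), which were not called there. Outside the genes named by rule, CDC23 turned to higher and RAC1 to lower, both called. The cause was not tested.

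Of the 26 genes called at least 2-fold higher, the 24 named by rule were called higher in every alternative run on them. Of the 9 at least 2-fold lower, 6 were called lower in each, while PIK3R1 lost its call against HCT116 siCARLo-5 and siCARLo-7 v2 and TFDP2 and HDAC4 lost theirs with the series-wide table. Low counts limit TWIST1, CREB3L1 and TBX2, whose HCT116 readings are at background.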
